A study of Homo sapiens with 9 samples.

Results

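The BCL2 family of apoptosis regulators was followed through 10 genes, namely BCL2, MCL1, BCL2L1, BCL2A1, BAX, BAK1, BCL2L11, BBC3, PMAIP1 and BID. They were taken by gene symbol from a count table of 59050 symbols, all 10 were found in it, and all 10 passed the filter on low counts together with the rest of the 13463 genes tested. BCL2 family proteins decide whether the outer membrane of the mitochondrion stays closed. BAX and BAK1 are the effectors, which form pores in that membrane and release cytochrome c. BCL2, MCL1, BCL2L1 (which encodes BCL-XL) and BCL2A1 are the guardians, which bind and hold back the effectors and the BH3-only proteins. BCL2L11 (BIM), BBC3 (PUMA), PMAIP1 (NOXA) and BID are BH3-only proteins, which respond to stress and either block the guardians or activate the effectors. In chronic lymphocytic leukemia (CLL) the malignant B cells are known for high BCL2, and venetoclax, an inhibitor of the BCL2 protein, is in clinical use.

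RNA sequencing was performed on MEC1, an established human B-cell line from CLL, in 9 samples that form 3 groups of 3. The 2D group was grown in conventional culture and its labels give no time in culture. The 3D groups were mixed with a hydrogel, bioprinted as a scaffold and collected after 7 days (3D day 7) or 14 days (3D day 14). The labels name no drug and no added cells in any group, and all samples come from the same line. All sample titles also carry the letters PGK, which the labels do not explain. The comparisons ask how expression differs between conventional and 3D culture and between the earlier and the later time in the scaffold. RNA from scaffolds was taken with TRIzol, treated with DNase I and passed over a column. The 2D RNA was taken with the column kit only, whose steps also held a DNase wash. The culture format and the extraction therefore cannot be told apart in any comparison with 2D. The labels do not say whether replicates were separate cultures, so p-values rest on the spread between these samples, which may be technical. The fit of gene counts estimated this spread over all 9 samples together and not for each group. Its SE and p-values therefore do not follow the spread of a single group.

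The sum of gene counts in a sample ran from 54662799 to 85968686. The median absolute log2 difference between replicates was 0.137 to 0.254 within 2D and within 3D day 7, and 0.306 to 0.460 within 3D day 14, where replicate 1 was the farther from the other two. The 7 B-cell markers fixed for a check of the label summed to 9616 to 11415 CPM (counts per 1000000 reads) in 2D, 11766 to 14240 in 3D day 7 and 17260 to 18560 in 3D day 14, and all 7 were tested. Most of the sum was CD74, at 7086 to 8897 CPM in 2D, 8992 to 10752 in 3D day 7 and 13730 to 14766 in 3D day 14, while CD22 went the other way, from 528 to 562 in 2D to 214 to 310 and 240 to 405. Against 2D, 1 of the 7 was called higher and 1 lower at day 7, and 3 higher and 1 lower at day 14 (edgeR). CD5, a defining antigen of CLL cells, was near 0, at 0.0183 to 0.669 CPM over the 9 samples, while FCER2 (CD23) was at 108 to 197 CPM. The 5 T-cell markers summed to at most 1.33 CPM and the 4 monocyte markers to at most 1.04 CPM in any sample, with CD3D and LYZ at 0 in 2D and 3D day 14. The 4 fibroblast markers summed to 6.81 to 7.58 CPM in 2D, 1.75 to 4.64 in 3D day 7 and 1.58 to 5.91 in 3D day 14, and the 4 epithelial markers to 0.648 to 1.03, 1.75 to 2.24 and 0.432 to 1.32 CPM. The part of these low markers in the results was not tested. In bulk samples such as these, fewer cells that express a gene and less RNA per cell cannot be told apart.

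The sequence just upstream of 5 members is shown because these genes cover each course described below, a rise (BAX), a fall at day 7 with a return at day 14 (BBC3, BCL2A1, BCL2L11) and a fall (PMAIP1). RefSeq sequences of the table's build, GRCh38.p14, were matched by symbol for 9 of the 10 members. Each is written 5′ to 3′ on the gene's strand and ends at or before the RefSeq start, with bases annotated as exon in the count table left out.
BAX: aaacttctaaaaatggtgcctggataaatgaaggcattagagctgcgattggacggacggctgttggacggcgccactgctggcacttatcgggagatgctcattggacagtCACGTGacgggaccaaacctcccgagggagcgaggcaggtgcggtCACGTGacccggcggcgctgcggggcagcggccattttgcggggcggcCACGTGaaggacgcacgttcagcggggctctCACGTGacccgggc
BBC3: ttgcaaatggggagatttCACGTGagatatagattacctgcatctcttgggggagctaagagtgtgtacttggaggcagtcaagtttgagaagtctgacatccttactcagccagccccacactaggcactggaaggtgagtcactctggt
BCL2A1: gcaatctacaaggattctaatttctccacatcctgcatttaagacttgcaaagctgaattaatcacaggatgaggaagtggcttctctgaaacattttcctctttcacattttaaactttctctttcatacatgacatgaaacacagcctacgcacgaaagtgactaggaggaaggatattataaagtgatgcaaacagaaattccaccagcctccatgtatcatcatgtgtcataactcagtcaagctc
BCL2L11: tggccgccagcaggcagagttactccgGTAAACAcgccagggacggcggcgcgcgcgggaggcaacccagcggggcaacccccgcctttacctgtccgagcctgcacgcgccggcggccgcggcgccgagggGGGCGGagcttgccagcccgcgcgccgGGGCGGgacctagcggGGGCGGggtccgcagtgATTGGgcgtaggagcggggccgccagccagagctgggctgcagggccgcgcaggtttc
PMAIP1: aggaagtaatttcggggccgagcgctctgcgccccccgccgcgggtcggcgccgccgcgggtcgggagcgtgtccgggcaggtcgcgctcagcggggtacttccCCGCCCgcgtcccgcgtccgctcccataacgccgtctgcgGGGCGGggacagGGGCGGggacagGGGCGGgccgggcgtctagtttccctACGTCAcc
They lie at chr19:48954625-48954874 (plus strand) for BAX, chr19:47232767-47232917 (minus strand) for BBC3, chr15:79971197-79971446 (minus strand) for BCL2A1, chr2:111120664-111120913 (plus strand) for BCL2L11 and chr18:59899746-59899947 (plus strand) for PMAIP1. Capitals mark the E-box CACGTG in BAX and BBC3, the GC box GGGCGG and the cAMP response element core TGACGT in PMAIP1, and the forkhead site GTAAACA, the GC box and the CCAAT box in BCL2L11. Both strands were searched, so a match can appear as its reverse complement, and no match overlapped another marked one. BAX held 4 E-boxes, beginning 138, 93, 45 and 14 bases upstream of the start, and 1 GC box and 2 CCAAT boxes left in lower case. BBC3 held 1 E-box at 232 bases upstream, and a CCAAT box at 87 bases upstream among the exon bases left out. For BID, which is not shown, some RefSeq windows held an E-box, at 106 or 47 bases upstream, and others held none. Among all 35116 RefSeq promoter windows of 250 bases, 6.34% held an E-box, 7.10% the response element core, 42.6% a GC box, 32.0% a CCAAT box and 2.98% the forkhead site. None of these motifs was found in BCL2A1, whose window was the poorest in G and C of the 5, at 38.8% against 76.8% in BCL2L11. A match is a string of letters and not a shown binding site.

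At day 7 in the scaffold 9 of the 10 members differed from 2D. MCL1, BCL2L1, BAX and BAK1 rose, BCL2, BCL2A1, BCL2L11, BBC3 and PMAIP1 fell, and BID was not called. By role, 2 of 4 guardians rose and 2 fell, both effectors rose, and 3 of 4 BH3-only genes fell. The background was wide, since 43.4% of all tested genes were called in this comparison (edgeR quasi-likelihood test, Benjamini-Hochberg adjusted p of at most 0.05), 22.2% up and 21.2% down. The median log2 fold change of the 10 members was -0.56, against -0.0039 for all genes tested.

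At day 14 in the scaffold 6 members differed from 2D, with MCL1, BCL2L1, BAX and BAK1 higher and BCL2 and PMAIP1 lower. BCL2A1, BCL2L11, BBC3 and BID were not called. The background was 36.2% of genes called, 19.0% up and 17.2% down, and the median was 0.26 for the members and 0.02 for all genes. From day 7 to day 14, 4 members rose, namely BCL2, BCL2A1, BCL2L11 and BBC3, and 0 fell in the edgeR test or with DESeq2, against 28.1% of all genes called, 14.5% up and 13.6% down. At an unadjusted p under 0.05, 1 member (MCL1) was lower in that comparison. The comparisons with 2D share the 2D samples and the comparisons with day 7 share the day 7 samples, so their values are given side by side and were not correlated. Scaling by total counts alone, in place of the TMM factors (trimmed mean of M-values), lowered the median over all tested genes by 0.16 (log2, day 7) and 0.21 (day 14), and changed the split of calls from 2985 up and 2853 down to 2156 and 3580 at day 7 and from 2557 and 2318 to 1603 and 3248 at day 14. No member changed direction with that scaling.

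**Figure D1:**
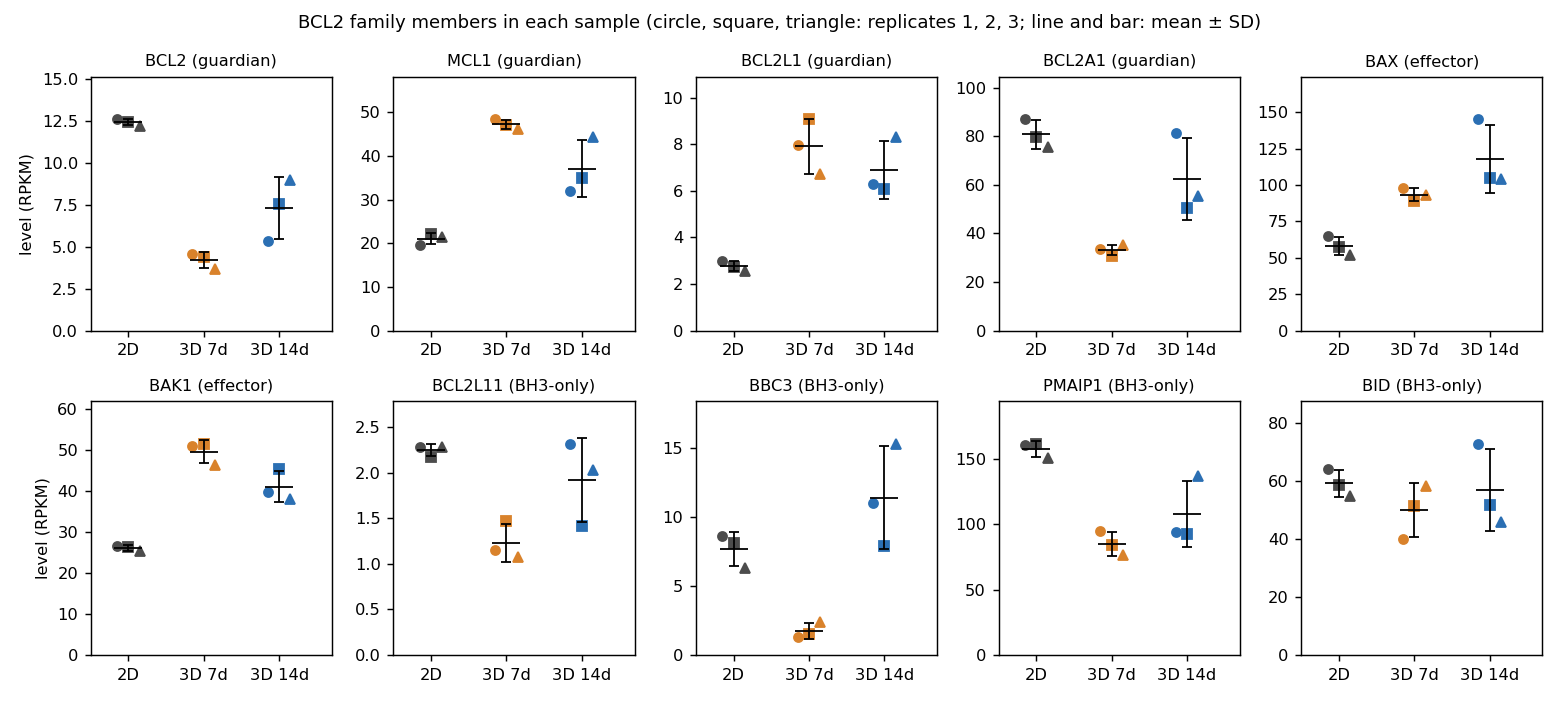
Level of each of the 10 members (RPKM, y axis starting at 0) in every 2D, 3D day 7 and 3D day 14 sample, with circle, square and triangle for replicates 1, 2 and 3 and a line and bar for the mean ± SD of 3. BCL2 lay at 12.2 to 12.6 in 2D and 3.67 to 4.60 at day 7, and BBC3 at 1.30 to 2.38 at day 7 and 7.93 to 15.3 at day 14.

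Levels are given as RPKM, the CPM after TMM scaling divided by the exon length in kilobases. This length counts every annotated exon base of a gene, so the order of levels between genes depends on the annotation. Without division by length, BCL2 stood at 144 to 148 CPM in 2D, MCL1 at 80.4 to 90.1 and BCL2A1 at 63.1 to 72.7. BCL2, the founding guardian and the target of venetoclax, lies on chromosome 18 from 63123346 to 63320128 (GRCh38, minus strand). Its level was 12.6, 12.5 and 12.2 RPKM in the 2D replicates, 4.60, 4.38 and 3.67 in 3D day 7 and 5.32, 7.58 and 9.02 in 3D day 14. Every 3D sample was below every 2D sample, and every day 14 sample was above every day 7 sample. The level fell 2.95-fold at day 7 (log2 fold change -1.56, SE 0.183, edgeR adjusted p = 4.74e-05) and stayed 1.70-fold below 2D at day 14 (-0.77, SE 0.180, adjusted p = 0.00546). Between the scaffold times BCL2 rose by 0.79 on the log2 scale (SE 0.180, edgeR adjusted p = 0.00717).

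MCL1, a guardian whose protein is turned over within hours, lies on chromosome 1 from 150574551 to 150579738 (minus strand). It stood at 19.7, 22.1 and 21.3 RPKM in 2D, 48.4, 47.1 and 46.2 in 3D day 7 and 31.9, 34.8 and 44.4 in 3D day 14. Both scaffold groups lay above 2D without overlap, and the day 14 samples lay below those of day 7. MCL1 rose 2.25-fold at day 7 (log2 fold change 1.17, SE 0.147, edgeR adjusted p = 7.85e-05) and 1.76-fold at day 14 (0.82, SE 0.146, adjusted p = 0.00108). The later difference, -0.35 from day 7 to day 14, was not called (edgeR adjusted p = 0.0886), but was without 3D day 14 replicate 3, its highest sample (-0.50, adjusted p = 0.0146).

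BCL2L1, which encodes the guardian BCL-XL and a short pro-apoptotic splice form, lies on chromosome 20 from 31664452 to 31722868 (minus strand). It was among the lowest members in 2D, at 2.98, 2.74 and 2.55 RPKM, and reached 7.96, 9.07 and 6.71 in 3D day 7 and 6.28, 6.09 and 8.33 in 3D day 14. All 6 scaffold samples were above all 2D samples, and the scaffold groups overlapped. The rise was 2.87-fold at day 7 (log2 fold change 1.52, SE 0.192, edgeR adjusted p = 7.79e-05) and 2.5-fold at day 14 (1.32, SE 0.191, adjusted p = 0.000276). Of its 2829 exonic bases 1194, or 42.2%, are shared with ABALON, an antisense gene, and the library kit does not mark strand, so reads of the pair cannot be told apart there. How such reads were counted is not stated, while RPKM divides by all 2829 bases. The level of BCL2L1 and the rank, share and ratio built on it are therefore uncertain. ABALON counts ran the other way at day 7, 226 to 311 in 2D and 142 to 208 in 3D day 7, beside 512 to 717 and 998 to 1405 for BCL2L1. At day 14 they were 166 to 328, overlapping 2D, beside 906 to 1310 for BCL2L1. Gene counts do not separate the splice forms.

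BCL2A1 (also called BFL1 or A1), a guardian that is a known target of NF-kappaB in B cells, lies on chromosome 15 from 79960892 to 79971196 (minus strand). It was the guardian with the highest RPKM in 2D, at 87.0, 79.8 and 75.4, though not with the highest CPM. In 3D day 7 it stood at 33.6, 30.8 and 35.2 RPKM and in 3D day 14 at 81.5, 50.3 and 55.5. The day 7 samples were below all others, while at day 14 replicate 1 lay within the 2D range and the other two below it. BCL2A1 fell 2.43-fold at day 7 (log2 fold change -1.28, SE 0.183, edgeR adjusted p = 0.000180) and rose 1.88-fold from day 7 to day 14 (0.91, SE 0.182, adjusted p = 0.00372). Against 2D the day 14 difference of -0.37 (SE 0.180) was not called (edgeR adjusted p = 0.125), but was without 3D day 14 replicate 1 (-0.61, adjusted p = 0.00327) and with scaling by total counts alone (-0.58, adjusted p = 0.0175). Without 3D day 14 replicate 2 it was -0.24 (edgeR adjusted p = 0.323).

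The make-up of the guardian transcripts differed between the groups. BCL2A1 made up 67.6% to 71.1% of the summed guardian RPKM in 2D, 33.7% to 38.3% in 3D day 7 and 47.3% to 65.2% in 3D day 14. MCL1 made up 16.1% to 19.1%, 50.4% to 51.6% and 25.5% to 37.9%, and was the most abundant guardian transcript in every day 7 sample. BCL2 contributed 10.3% to 11.0% in 2D, 4.0% to 4.87% in 3D day 7 and 4.26% to 7.69% in 3D day 14. The share of BCL2L1 was 2.29% to 2.44%, 7.30% to 9.92% and 5.03% to 7.10%. The summed level of the 4 guardians was 112 to 122 RPKM in 2D, 91.4 to 94.5 in 3D day 7 and 98.8 to 125 in 3D day 14, so the sum at day 7 lay below that of every 2D sample. These are shares of transcript per annotated exon length, which depend on the annotation, and not of protein.

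**Figure D2:**
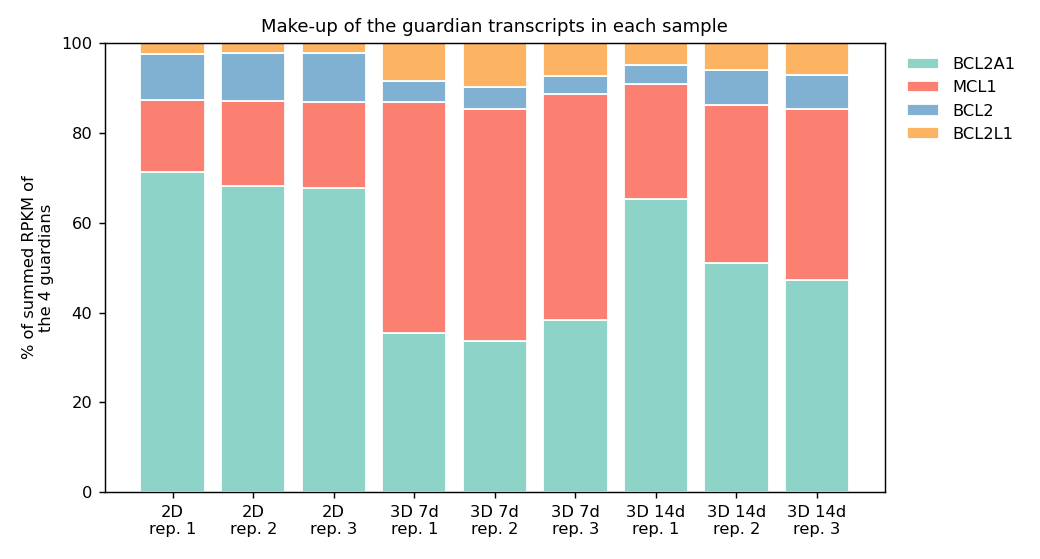
Share (% of the summed RPKM of the 4 guardians, y axis from 0 to 100) of BCL2A1, MCL1, BCL2 and BCL2L1 in each of the 9 samples, as stacked bars. BCL2A1 holds 67.6% to 71.1% in the 2D samples, and MCL1 50.4% to 51.6% in the 3D day 7 samples.

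Both effectors were higher in the scaffold at both times. BAX, which moves from the cytosol to the mitochondrion on activation, lies on chromosome 19 from 48954875 to 48961798 (plus strand), next to the E-boxes shown above. Its level was 64.9, 57.2 and 52.2 RPKM in the 2D samples, 97.8, 88.9 and 93.4 in 3D day 7 and 145, 105 and 104 in 3D day 14. The 3 groups did not overlap, with 2D lowest and day 14 highest. BAX rose 1.61-fold at day 7 (log2 fold change 0.68, SE 0.159, edgeR adjusted p = 0.00405) and 2.03-fold at day 14 (1.02, SE 0.159, adjusted p = 0.000439). The step from day 7 to day 14 was 0.34 and was not called (edgeR adjusted p = 0.125).

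BAK1, the effector that sits in the mitochondrial membrane, lies on chromosome 6 from 33572547 to 33580293 (minus strand). It stood at 26.6, 26.4 and 25.2 RPKM in 2D, 50.8, 51.5 and 46.3 in 3D day 7 and 39.6, 45.4 and 38.0 in 3D day 14. Again no group overlapped another, but here day 7 was the highest. BAK1 rose 1.90-fold at day 7 (log2 fold change 0.93, SE 0.131, edgeR adjusted p = 0.000165) and 1.57-fold at day 14 (0.65, SE 0.130, adjusted p = 0.00211), and the difference of -0.27 between the scaffold times was not called (adjusted p = 0.133). The summed effector level was 77.4 to 91.5 RPKM in 2D, 140 to 149 in 3D day 7 and 142 to 185 in 3D day 14.

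Among the BH3-only genes of the 10 members, 3 fell at day 7 and 1 of these, PMAIP1, was still called lower at day 14. Of all tested genes 21.2% were called down at day 7 and 17.2% at day 14. BBC3, which several stress pathways induce, lies on chromosome 19 from 47220824 to 47232766 (minus strand). It was expressed at 8.65, 8.12 and 6.29 RPKM in 2D, 1.30, 1.54 and 2.38 in 3D day 7 and 11.0, 7.93 and 15.3 in 3D day 14. The day 7 samples were far below both other groups, while 2D and day 14 overlapped. BBC3 fell 4.42-fold at day 7 (log2 fold change -2.14, SE 0.286, edgeR adjusted p = 0.000113) and rose 6.57-fold from day 7 to day 14 (2.71, SE 0.291, adjusted p = 0.000117), the largest change of any of the 10 members in these 3 comparisons. At day 14 the difference from 2D, 0.57 (SE 0.270), was not called (edgeR adjusted p = 0.116), but was without 3D day 14 replicate 2, its lowest sample (0.78, adjusted p = 0.0425). Without 3D day 14 replicate 3, its highest sample, it was 0.30 (edgeR adjusted p = 0.416), and with scaling by total counts alone 0.39 (adjusted p = 0.315).

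PMAIP1, which pairs with MCL1 and BCL2A1 and is a known target of ATF4, lies on chromosome 18 from 59899948 to 59904306 (plus strand). It had the highest level of the 10 members in 2D, at 161, 162 and 151 RPKM, and stood at 94.5, 84.0 and 76.1 in 3D day 7 and 94.0, 92.5 and 137 in 3D day 14. All scaffold samples were below 2D, with day 14 replicate 3 the nearest to it. PMAIP1 fell 1.86-fold at day 7 (log2 fold change -0.89, SE 0.168, edgeR adjusted p = 0.00112) and was 1.46-fold lower at day 14 (-0.55, SE 0.168, adjusted p = 0.0224). The day 14 call was lost without 2D replicate 1 (edgeR adjusted p = 0.0599), without 2D replicate 2 (adjusted p = 0.0659) and without 3D day 14 replicate 2 (adjusted p = 0.0623).

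BCL2L11, which encodes BIM and is a known FOXO target, lies on chromosome 2 from 111120914 to 111168445 (plus strand). It had the lowest mean level of the 10 members in each group, at 2.29, 2.17 and 2.28 RPKM in 2D, 1.15, 1.47 and 1.08 in 3D day 7 and 2.32, 1.41 and 2.03 in 3D day 14. Every day 7 sample lay below 2D, and day 14 replicate 2 lay within the day 7 range. BCL2L11 fell 1.83-fold at day 7 (log2 fold change -0.87, SE 0.218, edgeR adjusted p = 0.00655), while the day 14 difference from 2D was -0.23 (SE 0.216, adjusted p = 0.437). The rise from day 7 to day 14 was 1.56-fold (0.64, SE 0.218, edgeR adjusted p = 0.0440) and lost its call in 12 of 16 alternatives, whose adjusted p ran from 0.0104 to 0.180. Of its exonic bases 727, or 11.9%, are shared with the antisense gene MIR4435-2HG, which had 55 to 102 counts in 2D, 13 to 27 in 3D day 7 and 30 to 70 in 3D day 14 beside 845 to 1227, 345 to 490 and 452 to 763 for BCL2L11.

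BID, which caspase-8 cleaves to link death receptors to the mitochondrion, lies on chromosome 22 from 17734138 to 17774665 (minus strand). It stood at 64.2, 58.6 and 54.9 RPKM in 2D, 40.1, 51.5 and 58.5 in 3D day 7 and 72.9, 51.9 and 45.9 in 3D day 14. The 3 groups overlapped, and the spread within each scaffold group was wider than the differences between the means of 59.2 ± 4.66, 50.0 ± 9.26 and 56.9 ± 14.2 RPKM (SD, n = 3). The log2 fold change was -0.24 at day 7 (SE 0.189, edgeR adjusted p = 0.318), -0.06 at day 14 (SE 0.189, adjusted p = 0.838) and 0.19 between the scaffold times (SE 0.189, adjusted p = 0.487). Summed over the 4 BH3-only genes the level was 214 to 236 RPKM in 2D, 137 to 139 in 3D day 7 and 154 to 200 in 3D day 14, of which PMAIP1 made up 68.2% to 70.4%, 55.1% to 69.0% and 52.1% to 68.4%.

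**Figure D3:**
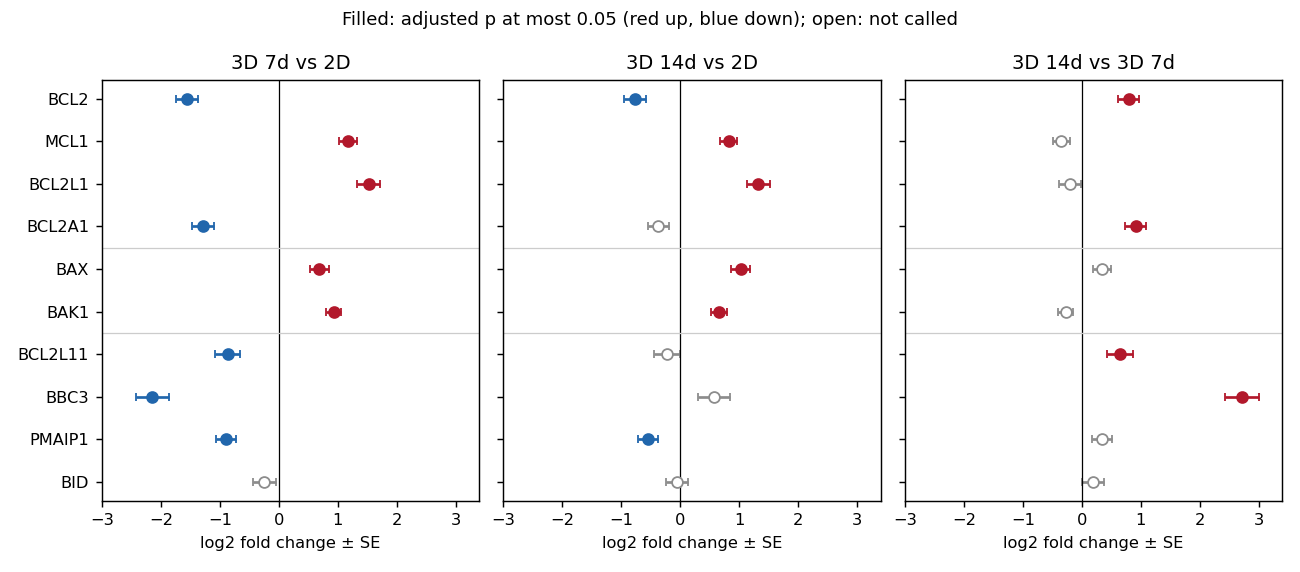
Log2 fold change ± SE (x axis) of the 10 members in the 3 comparisons, ordered as guardians, effectors and BH3-only genes, with filled points for an edgeR adjusted p of at most 0.05. At day 7 all points but BID are filled, and from day 7 to day 14 the point of BBC3 lies farthest out, at 2.71.

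Ranges that do not overlap were read against the same background. At day 7 the samples of 9 members did not overlap those of 2D (4 higher, 5 lower), against 64.6% of all tested genes (32.2% higher, 32.4% lower). At day 14 this held for 6 members, the same 6 that were called, against 49.7% of genes (24.2% higher, 25.5% lower). Between the scaffold times it held for 6 members against 39.3% of genes (18.9% higher, 20.5% lower), and these were BCL2, BCL2A1, BBC3 and BAX (higher at day 14) and MCL1 and BAK1 (lower), of which BAX, MCL1 and BAK1 were not called, while BCL2L11 was called although its ranges overlapped. The spread between replicates was widest at day 14, where the coefficient of variation of a member's RPKM was 9.42% to 32.6% with a median of 23.8%, against 1.52% to 16.1% (median 6.50%) in 2D and 2.24% to 32.6% (median 11.2%) in 3D day 7. Counting error alone would give 0.629% to 7.09% over the 3 groups.

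The order of the members by RPKM, which depends on the annotated exon lengths, differed between the groups. In 2D it ran PMAIP1, BCL2A1, BID, BAX, BAK1, MCL1, BCL2, BBC3, BCL2L1 and BCL2L11, and of neighbours in that order only BID and BAX had overlapping ranges. In 3D day 7 it ran BAX, PMAIP1, BID, BAK1, MCL1, BCL2A1, BCL2L1, BCL2, BBC3 and BCL2L11, with overlap between BAX and PMAIP1, between BID and BAK1, between BAK1 and MCL1 and between BBC3 and BCL2L11. In 3D day 14 it ran BAX, PMAIP1, BCL2A1, BID, BAK1, MCL1, BBC3, BCL2, BCL2L1 and BCL2L11, with overlap between BAX and PMAIP1, BCL2A1 and BID, BAK1 and MCL1, BBC3 and BCL2, and BCL2 and BCL2L1. BCL2 therefore ranked by RPKM above BCL2L1 in 2D without overlap and below it at day 7 without overlap. Without division by length this switch was absent. At day 7 BCL2 stood at 43.1 to 54.0 CPM and BCL2L1 at 19.0 to 25.7, and the level of BCL2L1 is uncertain, as stated above.

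Because guardians act by binding partners, 5 ratios of RPKM within a sample were compared, which do not depend on the scaling of the libraries. With 3 samples against 3, the exact two-sided permutation test cannot give a p below 0.1, and the smallest value after Benjamini-Hochberg adjustment over the 15 comparisons was 0.167, so none could pass 0.05. The ranges did not overlap in 9 of the 15. Among single genes tested, 64.6% did not overlap at day 7 against 2D, 49.7% at day 14 against 2D and 39.3% between the scaffold times. The share among other pairs of genes was not computed. BCL2 over BAX was 0.194, 0.218 and 0.234 in 2D, 0.0470, 0.0493 and 0.0393 in 3D day 7 and 0.0367, 0.0722 and 0.0865 in 3D day 14. All scaffold samples were below 2D, by a mean log2 difference of -2.26 at day 7 and -1.81 at day 14 (exact permutation p = 0.1 each). MCL1 over PMAIP1 was 0.122, 0.137 and 0.142 in 2D, 0.512, 0.561 and 0.608 in 3D day 7 and 0.339, 0.377 and 0.324 in 3D day 14. The 3 groups were separate, with log2 differences from 2D of 2.07 at day 7 and 1.38 at day 14, and of -0.69 from day 7 to day 14 (exact permutation p = 0.1 each).

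The other ratios differed less. BCL2L1 over BAK1 was 0.112, 0.104 and 0.101 in 2D, 0.157, 0.176 and 0.145 in 3D day 7 and 0.158, 0.134 and 0.219 in 3D day 14, higher than 2D without overlap at both times (log2 differences 0.59 and 0.66, exact permutation p = 0.1 each). BCL2 over BCL2L11 was 5.51, 5.73 and 5.36 in 2D, 4.01, 2.98 and 3.41 in 3D day 7 and 2.29, 5.37 and 4.44 in 3D day 14, below 2D at day 7 without overlap (-0.69, exact permutation p = 0.1) and overlapping it at day 14 (-0.54, p = 0.2). That day 14 difference was -0.18 without replicate 1 and -0.79 without replicate 2 of 3D day 14. MCL1 over BAK1, 2 genes that both rose, was 0.741 to 0.845 in 2D, 0.916 to 0.999 in 3D day 7 and 0.767 to 1.17 in 3D day 14, with log2 differences from 2D of 0.24 and 0.15 (exact permutation p = 0.1 and 0.8). The day 14 sample that stood apart was not the same in each ratio, being replicate 1 for BCL2 over BAX and BCL2 over BCL2L11 and replicate 3 for the ratios over BAK1.

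**Figure D4:**
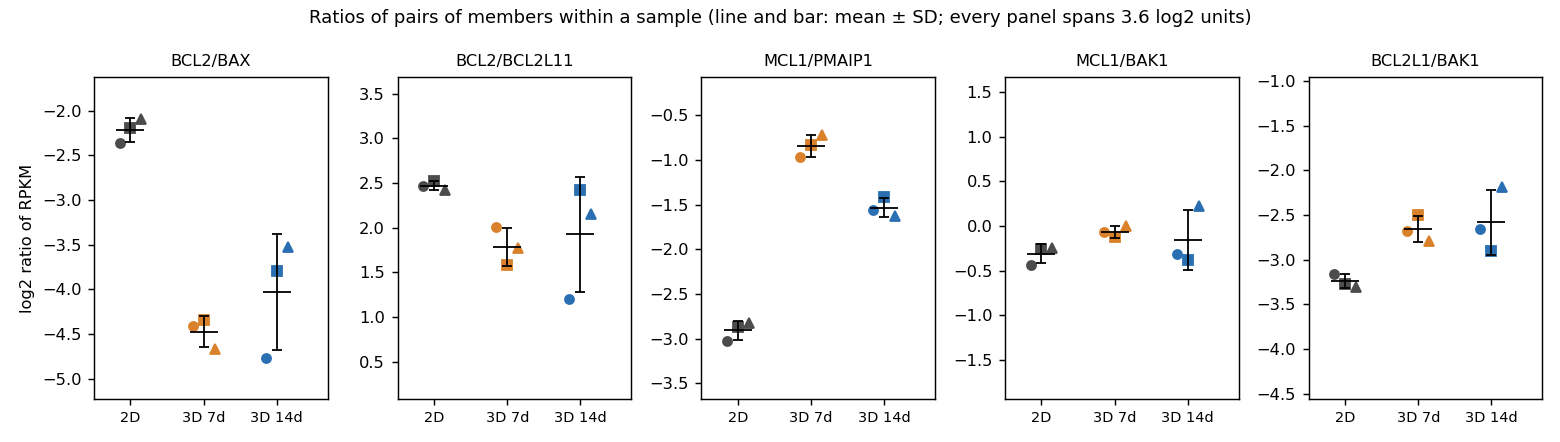
Log2 ratio of the RPKM of 2 members within each sample for 5 pairs (y axis, each panel spanning the same number of log2 units), with a line and bar for the mean ± SD of 3. For MCL1/PMAIP1 the 3 groups are separate, with means of -2.91 in 2D, -0.84 in 3D day 7 and -1.53 in 3D day 14.

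Patterns over the 9 samples were compared by the root mean square difference of log2 CPM after centring each gene on its own mean, as a description without a test. Within the family the closest pair was MCL1 and BAK1 (0.195), followed by MCL1 and BCL2L1 (0.250) and BCL2A1 and BCL2L11 (0.254), so that the closest pairs joined genes of different role as well as of the same role. Among all tested genes the closest to BCL2 were IPMK (0.115), SECISBP2L (0.126) and ZNF292 (0.140). The closest to MCL1 were SF3A1 (0.0705), NDFIP2 (0.0911) and RABGAP1L (0.102), and the closest to BAX were SPCS1 (0.0706), TMEM179B (0.0744) and PDLIM2 (0.0863).

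The other genes with BCL2 homology were read from the same fit. Of 11, 9 were tested and BOK and HRK fell below the filter. At day 7, 3 rose and 0 fell in the edgeR test, and at day 14, 5 rose and 0 fell, against 22.2% and 19.0% of all genes called up, with list medians of 0.45 and 1.03 against -0.0039 and 0.02 for all genes. At an unadjusted p under 0.05 the counts were 3 and 0 at day 7 and 6 and 0 at day 14, and with DESeq2 they were 3 and 0 and 5 and 0. BMF, a BH3-only gene, rose from 3.21 ± 0.301 RPKM (mean ± SD, n = 3, as for the genes that follow) in conventional culture to 4.37 ± 0.391 after 7 days and 6.56 ± 0.5 after 14 days in the scaffold (log2 fold change 0.45 and 1.03, edgeR adjusted p = 0.0356 and 0.000395), in contrast to the fall of BBC3, BCL2L11 and PMAIP1 at day 7. BIK, another BH3-only gene, rose by 1.03 and 1.51 on the log2 scale (edgeR adjusted p = 0.0113 and 0.00155). BCL2L15, a low-level relative, went from 0.288 ± 0.0175 RPKM to 0.623 ± 0.125 and 2.07 ± 0.861 (1.11 and 2.85, edgeR adjusted p = 0.0118 and 5.45e-05). The other two genes called at day 14, named after their values were seen, were BAD (1.08, edgeR adjusted p = 0.00478) and BCL2L10 (0.62, adjusted p = 0.0156). With scaling by total counts alone BMF was not called at day 7 and BCL2L10 was not called at day 14.

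In a list of 11 genes built around BNIP proteins and the mitochondrial outer membrane, 3 rose and 3 fell at day 7. At day 14, 2 rose and 1 fell. Among all genes 22.2% were called up and 21.2% down at day 7, and 19.0% and 17.2% at day 14. The list medians were 0.07 and -0.19. BCAP31 and OPA1, both in the list and both called up at day 7, are not outer membrane proteins (OPA1 0.53, edgeR adjusted p = 0.0205). BNIP3L and BNIP3, mitophagy receptors known to be induced by low oxygen, fell at day 7 from 67.3 ± 1.97 to 16.9 ± 8.08 RPKM and from 88.1 ± 7.44 to 25.5 ± 11.7 RPKM (log2 fold change -1.99 and -1.79, edgeR adjusted p = 0.000361 and 0.000598). From day 7 to day 14 both rose, by 1.34 and 1.26 (edgeR adjusted p = 0.00782 and 0.00912), as did BBC3 and BCL2A1. MTCH2, an outer membrane insertase that receives BID, rose at both times (1.03 and 0.67, edgeR adjusted p = 0.000216 and 0.00413), as did BCAP31 (0.63 and 1.04, adjusted p = 0.0293 and 0.00265). TOMM20, an import receptor, fell at both (-0.67 and -0.66, edgeR adjusted p = 0.00222 and 0.00312). Scaling by total counts alone left 1 called up and 3 down at day 7, where BCAP31 was not called, and 2 up and 4 down at day 14.

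Downstream of the mitochondrion, 12 of 13 apoptosome and inhibitor of apoptosis genes were tested (NAIP was below the filter), and 1 rose and 3 fell at day 7, while 2 rose and 3 fell at day 14, against 43.4% and 36.2% of all genes called, with list medians of 0.06 and -0.03. XIAP, an inhibitor of caspases, fell from 2.24 ± 0.254 RPKM to 0.945 ± 0.303 after 7 and 1.18 ± 0.244 after 14 days (log2 fold change -1.24 and -0.92, edgeR adjusted p = 0.00152 and 0.0109). BIRC5 (survivin), which also acts in mitosis, fell by 1.05 and 1.36 on the log2 scale (edgeR adjusted p = 0.000391 and 0.000104). APAF1, the apoptosome scaffold, fell (-0.66 and -0.86, edgeR adjusted p = 0.0433 and 0.0154), while CASP9, its caspase, rose (0.74 and 0.55, adjusted p = 0.00278 and 0.0174). With scaling by total counts alone 0 rose and 4 fell in this list at day 14 in the edgeR test, CASP9 being no longer called. Of 11 genes that process, turn over or bind members, 10 were tested (TRIM17 was below the filter). At each scaffold time 2 rose and 0 fell in the edgeR test and with DESeq2, against the same background. The list medians were 0.34 and 0.05. At an unadjusted p under 0.05, 3 rose and 0 fell at day 7 and 2 rose and 0 fell at day 14. By the adjusted p, DYNLL1, a dynein light chain and not a processing or turnover factor, was called at both times (0.76 and 1.09, edgeR adjusted p = 0.0214 and 0.00379). BTRC was called at day 7 (0.68, edgeR adjusted p = 0.00600) and CUL3 at day 14 (1.40, adjusted p = 0.00233).

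Of 14 transcription factors known to act on members, 1 rose and 4 fell at each scaffold time, against 43.4% and 36.2% of all genes called at day 7 and day 14, with list medians of -0.07 and -0.17. ATF4, the main factor of the integrated stress response, fell from 246 ± 2.03 RPKM to 79.8 ± 3.28 after 7 days and stood at 220 ± 31.1 after 14 days (log2 fold change -1.62, edgeR adjusted p = 7.23e-06, and -0.16, adjusted p = 0.375). DDIT3 (CHOP), which ATF4 induces, fell from 119 ± 4.78 to 32.0 ± 1.5 and 81.5 ± 18.2 RPKM (-1.90 and -0.55, edgeR adjusted p = 7.56e-06 and 0.0179). Both rose from day 7 to day 14, by 1.46 and 1.35 (edgeR adjusted p = 8.68e-05 and 0.000210). Of the members, BBC3, BCL2, BCL2A1 and BCL2L11 were called higher in that comparison. PMAIP1, the known ATF4 target, was not (0.35, edgeR adjusted p = 0.139). A link between these genes was not tested. MYC, which binds the E-box, fell from 100 ± 6.67 RPKM to 20.3 ± 3.65 and 23.5 ± 6.05 (-2.30 and -2.09, edgeR adjusted p = 8.69e-06 and 2.10e-05). STAT3 rose (1.02 and 0.67, edgeR adjusted p = 0.000919 and 0.0145). With scaling by total counts alone the day 14 counts were 0 up and 5 down in the edgeR test, since STAT3 was not called there, and at an unadjusted p under 0.05 with TMM they were 1 and 4, as with DESeq2. At day 7 they were 3 and 4 at an unadjusted p under 0.05 and 2 and 4 with DESeq2.

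**Figure D5:**
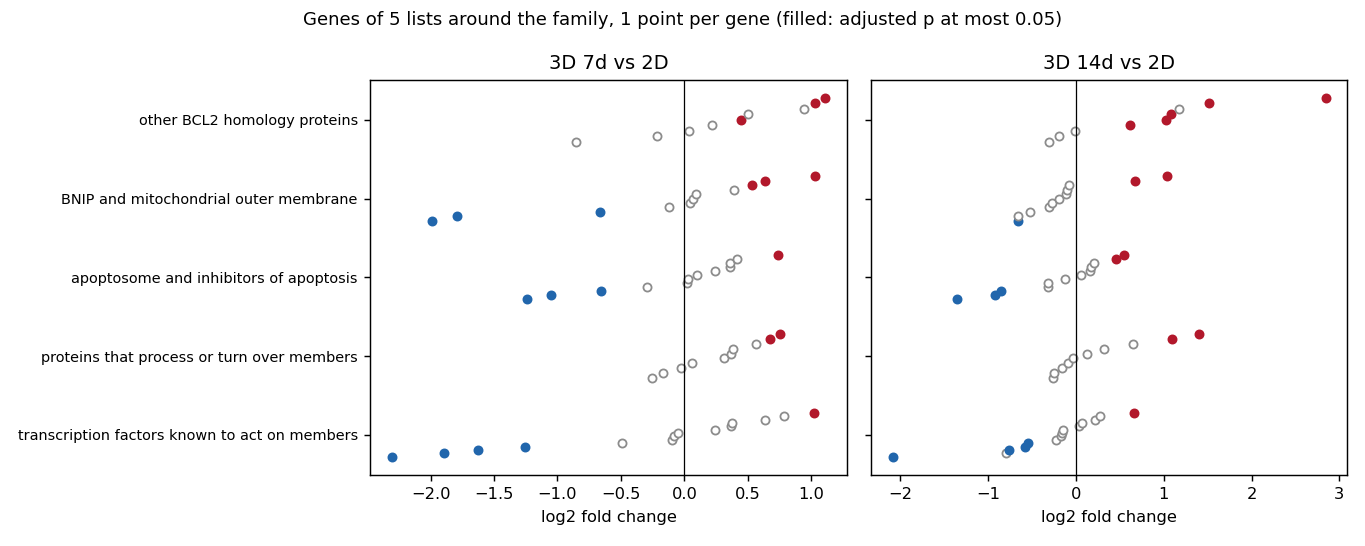
Log2 fold change (x axis) of each tested gene of 5 lists around the family, at day 7 and at day 14 against 2D, with filled points for an edgeR adjusted p of at most 0.05 (red higher, blue lower). No filled point of the other BCL2 homology proteins lies below 0, while the transcription factors hold points on both sides, from MYC at -2.30 to STAT3 at 1.02 at day 7.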

How the data were processed

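MEC1 cells in 3 groups of 3 samples (2D, 3D day 7 and 3D day 14) were profiled with the SMART-Seq v4 kit, which does not mark strand, from single-end reads. The deposited values are raw counts per gene. The authors used Trimmomatic 0.39 for trimming, STAR 2.5.3a with GRCh38 for alignment and featureCounts 1.6.4 for counts per GENCODE gene, and the strand setting is not given in the sources used here. Totals per sample were 54662799 to 85968686. Genes with CPM above 1 in at least 3 samples were kept (13463 of 59050 symbols, of which 51726 had a count), scaled by TMM and fitted with edgeR 4.0.16 (quasi-likelihood test, R 4.3.3) over all 9 samples with 1 mean per group. P-values were adjusted by Benjamini-Hochberg over all genes, with a call at 0.05. The SE is the log2 fold change over the root of the F statistic. RPKM used the exon length of the count table.

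Ratios of RPKM were compared by exact permutation. The numbers after ± and the SDs are over 3 samples. The members, lists and tests were chosen with earlier results of these data known. All members are named. Of each list, the 3 genes with the smallest p at each scaffold time among those called are named, and for BCL2, MCL1 and BAX the 3 genes of most similar pattern. Alternatives were DESeq2 1.42.0, other scalings and filters, the 6 samples of a comparison alone, a block on replicate number and leaving out each sample. The edgeR fit was tested on simulated data with known changes at day 7 and the same spread set for every group. That simulation does not speak for the day 14 comparisons, where replicates differed more. List counts under other scalings and DESeq2 were added after seeing the data. An item of the planned lists and the list built on it are not reported here.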

Additional observations from a re-analysis of the deposited data

Results flagged for a closer look

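The change from 2D differed between the scaffold times for 4 members, tested as the difference between 3D day 14 and 3D day 7 in the fit of all 9 samples (edgeR quasi-likelihood test), against 28.1% of all tested genes called in that comparison, 14.5% up. For BBC3 the difference was 2.71 on the log2 scale (SE 0.291, adjusted p = 0.000117), with a log2 fold change against 2D of -2.14 at day 7 and 0.57 at day 14. For BCL2A1 it was 0.91 (SE 0.182, edgeR adjusted p = 0.00372), with -1.28 at day 7 and -0.37 at day 14. For BCL2 it was 0.79 (SE 0.180, edgeR adjusted p = 0.00717), with -1.56 at day 7 and -0.77 at day 14. For BCL2L11 it was 0.64 (SE 0.218, edgeR adjusted p = 0.0440), with -0.87 at day 7 and -0.23 at day 14, and this call was lost in 12 of 16 alternatives. Groups of 3 are too small for a test of single samples that lie apart.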

How the results depend on the processing

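Of 480 values of the 30 member results under 16 alternatives each, 458 kept their direction and their side of the threshold, 15 lost and 4 gained a call, and 3 changed sign, all 3 for BID, which was not called: its log2 fold change without 1 sample ran from -0.27 to 0.076 at day 14 against 2D and from -0.017 to 0.34 from day 7 to day 14. The 15 lost calls were BCL2L11 from day 7 to day 14 in 12 and PMAIP1 at day 14 in 3. Without 1 sample each, ratio differences that changed sign ranged from -0.11 to 0.51 for BCL2/BCL2L11 and from -0.28 to 0.021 for MCL1/BAK1 and -0.12 to 0.23 for BCL2L1/BAK1 from day 7 to day 14, and from -0.037 to 0.27 for MCL1/BAK1 at day 14 against 2D.

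With a further minimum of 1 on the absolute log2 fold change, 1114 genes were called up and 1641 down at day 7 (2 and 3 members), 981 and 1191 at day 14 (2 and 0 members in the edgeR test, at the adjusted p of the fit) and 984 and 472 from day 7 to day 14 (1 and 0 members). Scaling by total counts alone gave 1603 genes up at day 14, and the 6 samples of the comparison alone gave 1124 genes down from day 7 to day 14. Leaving out 1 sample gave 1617 to 2862 genes up at day 14, 1188 to 2200 up and 1088 to 2157 down from day 7 to day 14, 1 to 3 members down at day 14 and 0 to 1 member down (MCL1, without 3D day 14 replicate 3) from day 7 to day 14. Genes up at day 14 numbered 1653 without 2D replicate 2. From day 7 to day 14 leaving out 3D day 7 replicate 2 gave 1188 up and 1094 down. The cause was not tested.

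The labels do not say whether replicate numbers pair the samples. The correlation of deviations between same-numbered samples ran from -0.10 to 0.19. Between 2D and 3D day 14 every sample correlated best with its own number (0.093 to 0.19). Same-numbered correlations were below 0 between 2D and 3D day 7 (-0.10 to -0.018) and between the scaffold times (-0.095 to -0.0052). Whether the samples are paired cannot be read from these values. With a replicate block, 2939 genes were up and 2821 down at day 7, 2458 and 2361 at day 14 and 1818 and 1865 from day 7 to day 14, and of the member calls BCL2L11 from day 7 to day 14 was lost (0.63, edgeR adjusted p = 0.0677). Counting error, taken from the mean count of a member in a group, was at most 7.09% of its level, and can be larger in a single sample.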
